A study of Homo sapiens with 2 samples.

Results

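The mRNAs described here encode the proteins that shorten poly(A) tails, remove caps, degrade mRNA from either end and survey it for premature stop codons. They were chosen by name: CNOT, EXOSC, UPF, SMG with a digit, PABPC and EDC genes, together with DCP1A, DCP1B, DCP2, XRN1, XRN2, PAN2, PAN3, PARN, DIS3 and DIS3L, leaving out pseudogenes and hyphenated names. The rule used no measured value and found 46 genes among 14914 listed features. RNA was measured by RIP-seq, in which RNA bound to a protein is recovered with an antibody and sequenced. The cells were HUH7, an established human hepatocellular carcinoma line with no stated treatment or allele, and the bait, per the series title, was CSTF2. There was 1 library of immunoprecipitated RNA (IP) and 1 library of input RNA (Input), so the design asks which RNAs were recovered with CSTF2, and no difference below has a replicate check. No control immunoprecipitation was among the libraries, so RNA bound to CSTF2 and RNA recovered without it cannot be told apart.

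CSTF2 is the subunit through which the cleavage stimulation factor contacts RNA, and it binds GU-rich and U-rich RNA just past the point where a pre-mRNA is cut. The cleavage and polyadenylation specificity factor reads the AAUAAA hexamer upstream of that point, and the poly(A) tail added there is the substrate of the deadenylases. In the cytoplasm, PAN2-PAN3 and then CCR4-NOT shorten the tail, DCP2 removes the cap and XRN1 digests the body from the 5′ end, while the exosome digests from the 3′ end. Nonsense-mediated decay (NMD in the plots) is the surveillance pathway in which UPF and SMG proteins mark mRNAs that end translation early.

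The 3′ ends of 8 members are shown because they are where cleavage factors act, and because these 8 include the nonsense-mediated decay mRNAs highest in the IP and a pair of the CCR4-NOT mRNAs lowest in it. Each line gives up to 30 bases of the most distal protein-coding transcript of GENCODE release 29 (GRCh38), 5′ to 3′, as DNA letters, with the poly(A) signal hexamer in capitals.
SMG1 (chr16:18804861-18804890, minus strand): tttcagaaAATAAAggttcagtctcaaaag
UPF1 (chr19:18868203-18868232, plus strand): caaatattAATAAAcagttttgacttcaca
SMG5 (chr1:156249224-156249251, minus strand): catcacttAATAAAccccccaagcccaa
UPF2 (chr10:11920022-11920048, minus strand): gatgctgcAATAAAgtgttgtaattta
SMG6 (chr17:2059846-2059875, minus strand): gtttccttAATAAAtttttagttatgaaac
UPF3B (chrX:119805311-119805340, minus strand): ttgatgtcAATAAAtagtaacaacattcaa
CNOT8 (chr5:154876757-154876786, plus strand): ttttgtaaAATAAAgatttctttttaacca
CNOT10 (chr3:32773845-32773874, plus strand): cataggcaATTAAAacataattttatcaga
In the last 50 bases of the most distal transcript, on the sense strand, AATAAA was found in 27 of the 46 members and ATTAAA alone in 12 more. Past the filter described below, 34 of 38 members (89.5%) held one of these hexamers, against 78.2% of 7595 protein-coding features. The motifs TGTGT and TTTTT were found in that window in 2 and 9 of the 38 (5.26% and 23.7%), against 8.65% and 19.9% of the protein-coding features. Both high and low members carried the canonical AATAAA, as the ends of UPF1 and CNOT8 show, and the bases past the cleavage point were not analysed here.

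The IP held 3220045 assigned reads and the Input 9517885, with a median of 72 and 176.5 reads for a member past the filter. All 16 hepatocyte markers fixed for the check were present in both libraries, with summed levels of 876 RPKM in the IP versus 967 in the Input, led by the fibrinogen chain FGB. Of 8 markers of blood, endothelial and stromal cells, 4 were listed, with sums of 10.6 RPKM in each library, and PTPRC, PECAM1, VWF and COL1A1 were not listed. LUM, at 5.16 RPKM in the IP and 7.27 in the Input, was above the hepatocyte markers AHSG, APOH and TTR in both libraries. CD68 was at 3.12 RPKM and 0.576 RPKM, COL1A2 at 1.61 RPKM and 1.22 RPKM, and LYZ at 0.704 RPKM and 1.55 RPKM.

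Levels are RPKM, reads scaled to feature length and library depth. Comparisons of level between genes are approximate. For most features the length covers all annotated exons, used or not, and some genes share bases with others. An IP level also mixes abundance with recovery. The main difference is log2((IP + 1)/(Input + 1)) of RPKM, taken where the mean of the libraries was 1 RPKM or more, and it understates the change of low features. Plain RPKM ratios are given with an exact conditional 95% interval from the recovered reads. These intervals cover counting error only, and they can be too narrow, because the reads carry no molecular identifiers and PCR copies are counted singly. A ratio of 1 also rests on scaling to total reads, and the libraries differed in composition. Protein-coding features held 69.0% of IP reads but 39.8% of Input reads. The feature with the most Input reads held 4.10e+06 of 9517885. The side of 1 on which a ratio lies therefore depends on that scaling.

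Of the 46 mRNAs, 38 passed the filter. On the log2 scale with the pseudocount, 3 members, SMG1, UPF1 and PABPC1L, were higher in the IP by 2-fold or more, against 9.88% of 9880 features. CNOT7 was the 1 member at least 2-fold lower, against 6.83% of features. All members are protein-coding, and of the 7626 protein-coding features past the filter 5.81% were higher and 5.19% lower. Centred on the median of all features, 3 members were higher and 2 lower, CNOT10 joining CNOT7, and features as a whole went from 976 higher and 675 lower to 684 and 944. Before centring, the share of members past 2-fold was 7.89% in the higher direction, between the shares of all and of protein-coding features. In the lower direction it was 2.63%, under both. The median log2 ratio of the 38 was 0.30, against 0.17 for all features. By counting interval, 18 members lay above a ratio of 1 and 4 below it, where 36.1% and 20.1% of all features did. These shares are not matched for depth. Median reads of the members were 72 (IP) and 176.5 (Input), against 44 and 116 for all features, and more reads give narrower intervals. The members of nonsense-mediated decay had 6 of 9 intervals above 1, and CNOT7, CNOT8 and CNOT10 of CCR4-NOT, with PABPC1, were the 4 below it. SMG6, PABPC1L, DCP1A and DIS3L passed the filter only through their IP level, so these counts and medians include 4 members that had to be high in the IP.

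**Figure D1:**
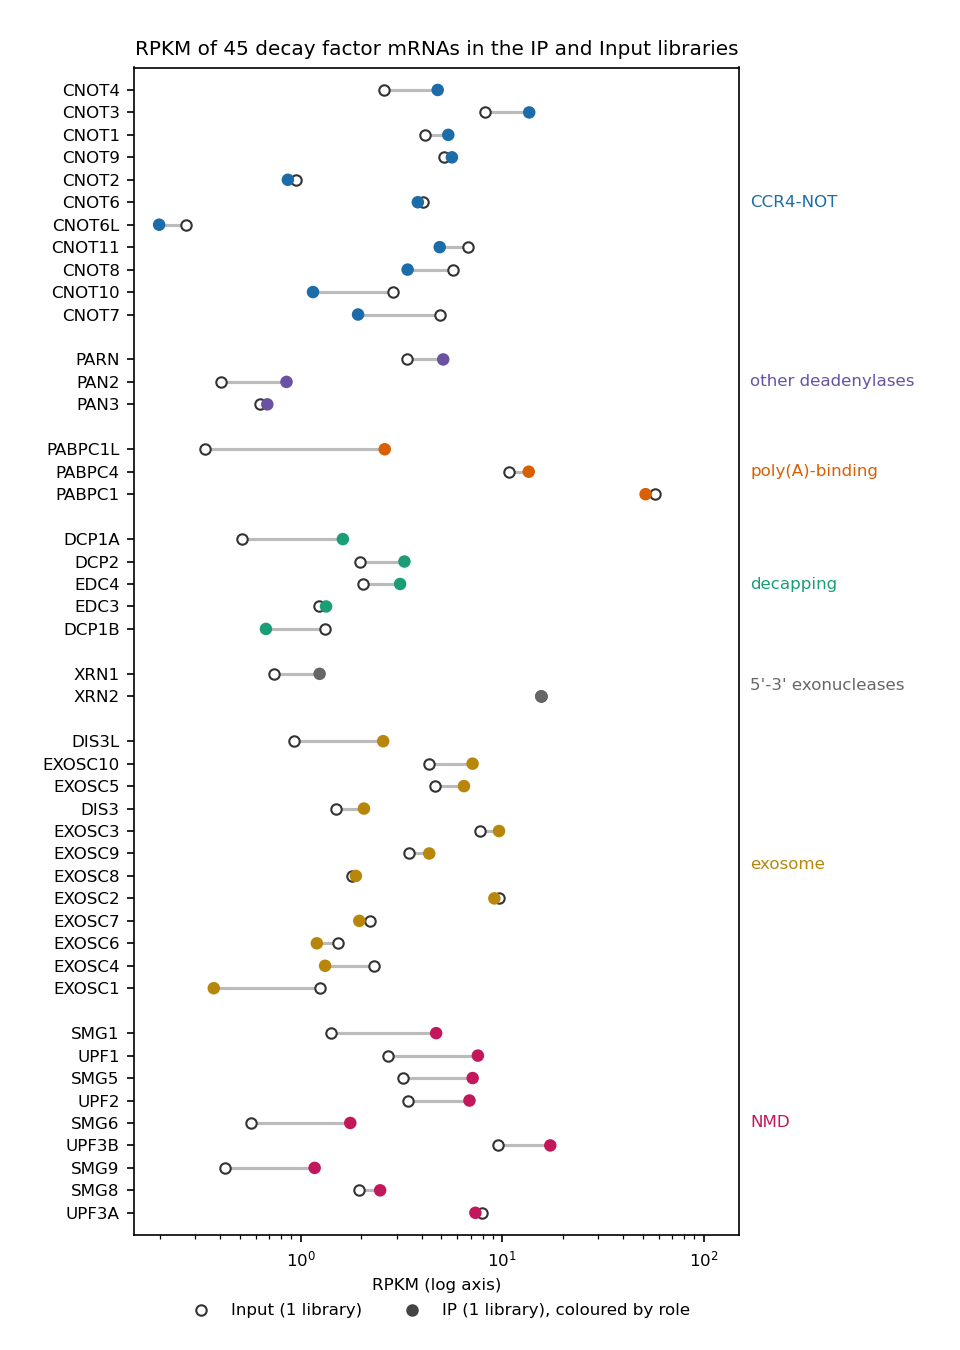
RPKM (log axis) of 45 of the 46 mRNAs in the IP (filled, coloured by role) and the Input (open), 1 library each, joined by a line. PABPC1 is the most abundant in both libraries, and 8 of the 9 plotted mRNAs of nonsense-mediated decay (NMD) are higher in the IP, UPF3A being the exception. Of all features past the filter, 5964 of 9880 are higher in the IP.

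The mRNAs of nonsense-mediated decay had a median log2 ratio of 0.82 over the 9 that passed the filter, 0.65 above that of all features. Of their 9 RPKM ratios, 8 were over 1, as were 5964 of 9880 among all features past the filter. The 29 other members had a median of 0.27. With 1 library per group, the difference between these sets has no test.

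SMG1 encodes the kinase that phosphorylates UPF1. Its gene lies on chromosome 16 from 18804853 to 18926454 (minus strand, 63 merged exon blocks, 25988 bp of exon). Its level was 4.71 RPKM in the IP versus 1.42 in the Input, from 394 and 351 reads, a ratio of 3.32 (2.87 to 3.84). The Input was 2.96 times deeper than the IP, yet SMG1 had more reads in the IP. SMG1 has copies on chromosome 16, and 14.4% of the 50-base windows of its transcripts also occur in transcripts of other genes, led by SMG1P2, SMG1P5, SMG1P1 and SMG1P4. Of the copies with values, SMG1P3 was at 1.66 RPKM in the IP versus 0.355 in the Input, 4.68-fold higher (2.74 to 8.16) on 38 and 24 reads, and SMG1P1, SMG1P4 and SMG1P6 had 6 to 10 reads in the IP. Reads of SMG1 and its copies can be shared, so their values are not independent.

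UPF1 encodes the RNA helicase at the centre of the pathway. The gene lies on chromosome 19 from 18831938 to 18868236 (plus strand, 8600 bp of exon). Its mRNA was at 7.58 RPKM in the IP versus 2.72 in the Input, 2.78-fold higher (2.29 to 3.38), from 210 and 223 reads. UPF2, whose protein joins UPF1 to the exon junction complex, was at 6.89 RPKM in the IP versus 3.40 in the Input, a ratio of 2.03 (1.61 to 2.55). Its log2 ratio with the pseudocount was 0.84, under the 2-fold threshold.

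The UPF3 paralogs, which link UPF2 to the exon junction complex, differed. UPF3B on chromosome X was at 17.3 RPKM in the IP versus 9.55 in the Input, a ratio of 1.82 (1.49 to 2.20), whereas UPF3A on chromosome 13 was at 7.37 RPKM and 7.92 RPKM, a ratio of 0.931 (0.763 to 1.13). Their counting intervals did not overlap. UPF3A was the lowest of the pathway, and 17.1% of its windows are shared with other genes, led by its processed pseudogenes. UPF3AP3 had 18 IP reads and 6 Input reads, UPF3AP2 had 4 and 2, and UPF3A had 137 and 435. UPF3AP1, which also shares windows with UPF3A, had no values. How reads of shared windows were assigned is not known, and the part of sharing in the UPF3A ratio was not tested.

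SMG5 and SMG6 bind phosphorylated UPF1, and SMG6 is the endonuclease that cuts the target. SMG5 was at 7.14 RPKM in the IP versus 3.21 in the Input, a ratio of 2.23 (1.75 to 2.83). SMG6 was at 1.77 RPKM and 0.567 RPKM, a ratio of 3.11 (2.13 to 4.55) on 60 and 57 reads, and passed the filter only through its IP level. Of the exon bases of SMG6, 22.9% overlap HIC1 on the opposite strand, which had 9 and 3 reads.

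SMG8 and SMG9 encode the partners that hold SMG1 in check. SMG9 was at 1.18 RPKM in the IP versus 0.424 in the Input, a ratio of 2.77 (1.63 to 4.71), and did not pass the filter. SMG8 was at 2.48 RPKM and 1.96 RPKM, a ratio of 1.27 (0.797 to 1.97) on 30 and 70 reads. Differences of this size were not detectable at that depth.

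**Figure D2:**
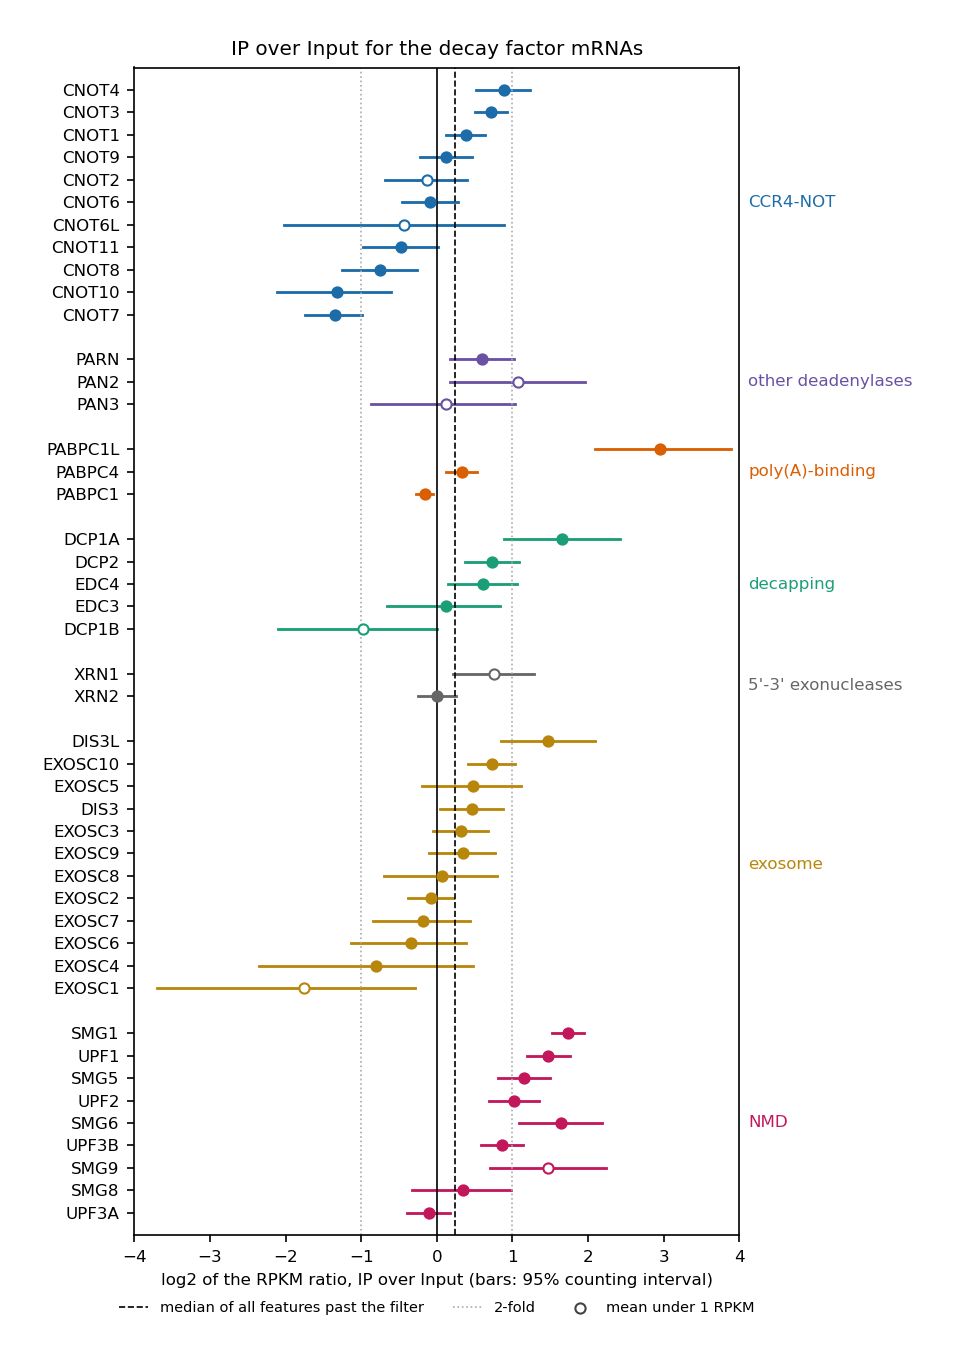
Log2 of the RPKM ratio of IP over Input, without a pseudocount, for 45 of the 46 mRNAs, with the 95% counting interval as a bar. Open points have a mean under 1 RPKM, the dashed line is the median of all features past the filter and dotted lines mark 2-fold. SMG1, UPF1, SMG6 and PABPC1L lie wholly to the right of 2-fold, and CNOT7, CNOT10, CNOT8 and PABPC1 wholly to the left of 0 among the filled points.

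CCR4-NOT, the main cytoplasmic deadenylase, had subunits on both sides of equal levels. Its median log2 ratio was -0.07 over 9 mRNAs, with 3 intervals above 1, 3 below 1 and 3 that include 1. On the high side, CNOT4, an E3 ubiquitin ligase associated with the complex, was at 4.79 RPKM in the IP versus 2.60 in the Input, a ratio of 1.85 (1.44 to 2.36). CNOT3, of the NOT module, was at 13.6 RPKM and 8.26 RPKM, a ratio of 1.65 (1.43 to 1.91). CNOT1, the scaffold that holds the other subunits, was at 5.41 RPKM and 4.15 RPKM, a ratio of 1.30 (1.09 to 1.55). That interval includes the median RPKM ratio of all features, 1.18. Of the other members past the filter with intervals above 1, PARN, PABPC4, EDC4 and DIS3 have intervals that also include 1.18. With the pseudocount, the log2 ratio of CNOT1 was 0.31, against a median of 0.46 for protein-coding features of 8000 bp or more. CNOT1 and CNOT3 overlap SETD6 and LENG1 on the opposite strand over 1086 and 548 exon bases, and strand was not stated to be kept.

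The mRNAs of the CAF1 deadenylases were on the low side. CNOT7, on chromosome 8 from 17224964 to 17246878 (minus strand, 10943 bp of exon), was at 1.93 RPKM in the IP versus 4.93 in the Input, from 68 and 513 reads, 2.55-fold lower (1.98 to 3.34). Its paralog CNOT8 was at 3.40 RPKM and 5.69 RPKM, 1.68-fold lower (1.20 to 2.38), and the intervals of the pair overlapped. CNOT10 and CNOT11 encode the module that binds the N-terminal end of CNOT1. CNOT10 was at 1.15 RPKM in the IP versus 2.88 in the Input, 2.50-fold lower (1.52 to 4.35) on 18 and 133 reads, and CNOT11 at 4.90 RPKM and 6.79 RPKM, 1.38-fold lower (0.991 to 1.97). All 4 thus had a lower level in the IP, with the interval of CNOT11 reaching 1.

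For the other catalytic pair of the complex, the CCR4-type enzymes, both intervals included 1. CNOT6 was at 3.82 RPKM in the IP versus 4.05 in the Input, a ratio of 0.943 (0.725 to 1.21). CNOT6L, at 0.199 RPKM and 0.269 RPKM on 6 and 24 reads, a ratio of 0.739 (0.247 to 1.86), was too shallow for a comparison. CNOT9, which binds proteins that recruit the complex, had a ratio of 1.09 (0.854 to 1.38), and CNOT2, under the filter, 0.915 (0.622 to 1.32).

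Among the other deadenylases, PARN, which trims poly(A) tails of mRNAs and small RNAs, was at 5.10 RPKM in the IP versus 3.36 in the Input, a ratio of 1.52 (1.13 to 2.03). The catalytic PAN2 and its partner PAN3 were both under the filter. PAN2 was at 0.852 RPKM and 0.404 RPKM on 20 and 28 reads, a ratio of 2.11 (1.13 to 3.88), and PAN3 at 0.684 RPKM and 0.629 RPKM, a ratio of 1.09 (0.545 to 2.06).

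The poly(A)-binding proteins coat the tail. PABPC1, the major cytoplasmic form and the most abundant member, was at 51.5 RPKM in the IP versus 57.6 in the Input, from 788 and 2606 reads, 1.12-fold lower (1.03 to 1.21). PABPC4 was at 13.6 RPKM and 10.8 RPKM, a ratio of 1.26 (1.09 to 1.44), and its interval did not overlap that of PABPC1. PABPC1L, a paralog known from oocytes, on chromosome 20 from 44910062 to 44959035 (plus strand, 4984 bp of exon), was at 2.62 RPKM in the IP versus 0.337 in the Input. Its ratio of 7.76 (4.27 to 14.8) was the highest of all members, rested on 42 and 16 reads, and passed the filter only through the IP. PABPC1 shares 7.45% of its windows with other genes, among them PABPC3 and PABPC1P4, and the latter had 6 and 12 reads.

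Of the decapping mRNAs, DCP2, the catalytic subunit, was at 3.28 RPKM in the IP versus 1.97 in the Input, a ratio of 1.66 (1.29 to 2.12). EDC4, the scaffold of the decapping complex, had a similar ratio, 1.53 (1.11 to 2.09), from 3.12 RPKM and 2.04 RPKM. Over 21.2% of its exon bases, EDC4 overlaps the noncoding AC040162.3 on the same strand. EDC3, another enhancer of decapping, had a ratio of 1.08 (0.633 to 1.79). The DCP1 paralogs, which activate DCP2, had different ratios. DCP1A, which passed the filter only through its IP level, was at 1.62 RPKM in the IP versus 0.514 in the Input, 3.15-fold higher (1.86 to 5.37), and DCP1B at 0.674 RPKM and 1.32 RPKM, 1.96-fold lower (0.994 to 4.31). Their intervals did not overlap, on 32 and 30 reads for DCP1A and 10 and 58 for DCP1B. DCP1A was under 2-fold on the pseudocount scale (0.79) and DCP1B did not pass the filter.

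XRN2, the nuclear 5′-3′ exonuclease that degrades the RNA left on the polymerase after cleavage, was at 15.6 RPKM in both libraries, a ratio of 1.003 (0.839 to 1.19). It was the member closest to equal levels. The cytoplasmic XRN1 was at 1.24 RPKM in the IP versus 0.737 in the Input, under the filter, with a ratio of 1.69 (1.16 to 2.44) whose interval overlapped that of XRN2.

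The exosome consists of a ring of EXOSC subunits with which DIS3, DIS3L and EXOSC10 act as nucleases. The 9 EXOSC mRNAs past the filter had a median log2 ratio of 0.04, and 8 of their intervals include 1. The exception was EXOSC10, the nuclear nuclease, at 7.14 RPKM in the IP versus 4.32 in the Input, a ratio of 1.65 (1.33 to 2.04). Antisense AL109811.1 covers 36.6% of the exon bases of EXOSC10, so its reads are not told apart from antisense RNA. DIS3L, the cytoplasmic nuclease, was at 2.57 RPKM and 0.928 RPKM, 2.77-fold higher (1.80 to 4.25), the highest ratio of the group. DIS3 was at 2.06 RPKM and 1.49 RPKM, a ratio of 1.38 (1.03 to 1.84), with an interval that overlapped that of DIS3L. With the pseudocount, the log2 ratio of DIS3 was 0.30, against a median of 0.46 for protein-coding features of 8000 bp or more. DIS3 overlaps BORA on the opposite strand over 1180 exon bases. DIS3L passed the filter only through its IP level.

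The non-catalytic EXOSC mRNAs ranged more widely in level than in ratio. EXOSC3 and EXOSC2, cap subunits that bind RNA, were the most abundant, at 9.66 RPKM and 9.16 RPKM in the IP and 7.75 RPKM and 9.66 RPKM in the Input, with ratios of 1.25 (0.968 to 1.59) and 0.947 (0.768 to 1.16). The other ring subunits past the filter lay between EXOSC5 at 1.39 (0.876 to 2.16) and EXOSC4 at 0.572 (0.195 to 1.39), the latter on 6 and 31 reads. EXOSC1, the remaining cap subunit, was under the filter at 0.371 RPKM in the IP versus 1.26 in the Input, 3.38-fold lower (1.22 to 13.0) on 4 and 40 reads.

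Feature length moved with the ratio in these libraries. Across 7625 protein-coding features past the filter the Spearman rho of log2 ratio and length was 0.38, and across the 38 members 0.39, where genes share the libraries and are not replicates. The median log2 ratio of protein-coding features went from -0.41 under 2000 bp to 0.46 at 8000 bp or more. Set against the median of their own length bin, 7 of 9 mRNAs of nonsense-mediated decay were above it, with a median difference of 0.68. For CCR4-NOT, 2 of 9 were above, with a median difference of -0.32. Among 1445 protein-coding features of 8000 bp or more, 12.0% were past 2-fold on the higher side, so SMG1 and UPF1 belong to a sizeable group, whereas 0.346% were at least 2-fold lower, and CNOT7 is one of these. The short UPF3B, with 3081 bp of exon, was 0.84 above its bin. The part of length in these ratios was not tested further.

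**Figure D3:**
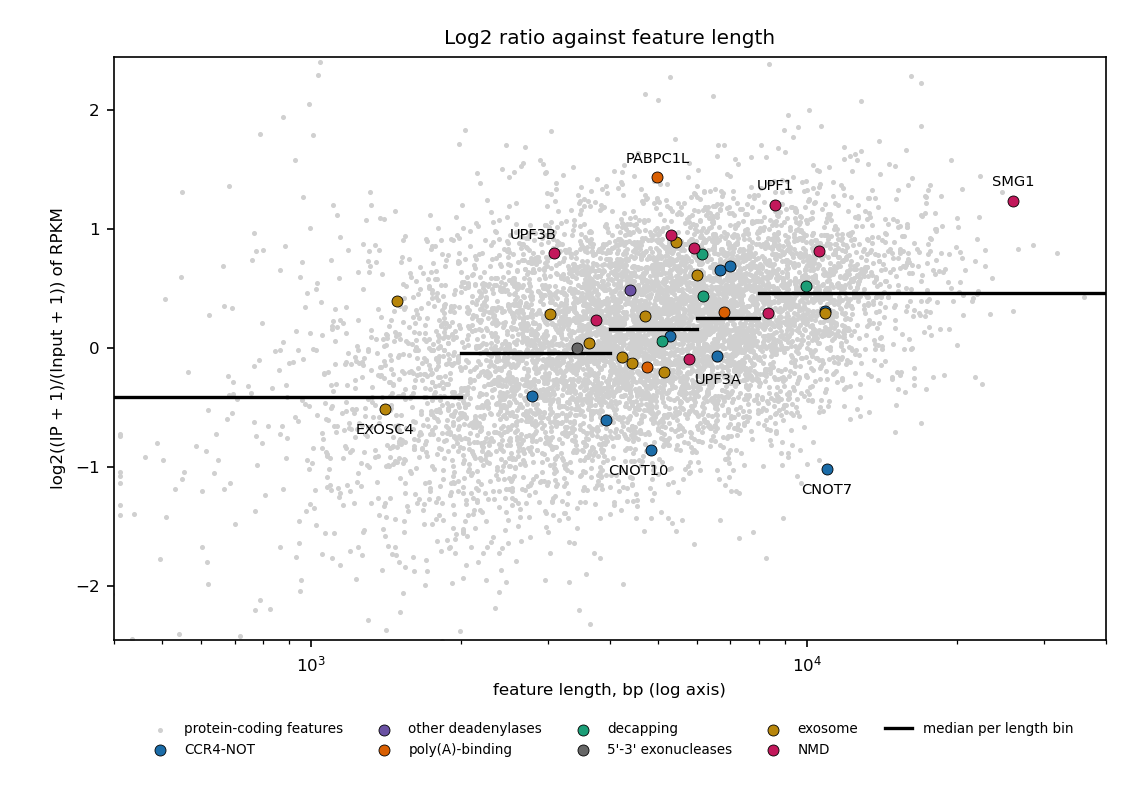
Log2((IP + 1)/(Input + 1)) of RPKM against feature length (log axis) for 7626 protein-coding features past the filter (grey, of which 45 fall outside the plotted range or have no recovered length) and the 38 members (coloured by role). Black bars are the median of the grey features in each length bin, from -0.41 to 0.46, and CNOT7 lies far under the bar of its bin while SMG1 and UPF1 lie over it.

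GC content moved with the ratio more weakly. The Spearman rho of log2 ratio and transcript GC was 0.27 over 7598 protein-coding features and 0.10 over the members. UPF1, SMG5 and SMG6 have 60.3%, 57.6% and 55.1% GC, and SMG1, UPF2 and UPF3B have 42.8%, 41.2% and 42.7%. The 8 members past the filter with 54% GC or more had the highest median log2 ratio of the GC bins, 0.74, against 0.36 for the protein-coding features of that bin. The 6 members under 42% had a median of 0.17, against -0.08, and among them CNOT7, at 38.3% GC, had the lowest ratio and UPF2 the highest. The part of GC content in these ratios was not tested.

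Partners of these proteins that the naming rule does not take were listed separately. Of 56 listed, 48 passed the filter, with a median log2 ratio of 0.16. In the IP, 2 were higher by 2-fold or more and 4 lower, or 4.17% and 8.33%. The shares were 9.88% and 6.83% of all features, and 5.81% and 5.19% of protein-coding features. With the same centring, 1 was higher and 7 lower, against 6.92% and 9.55%. The higher pair was KHSRP, an AU-rich element binding protein, at 63.1 RPKM in the IP versus 26.2 in the Input (ratio 2.41, 2.21 to 2.63), and TNRC6A, the GW182 protein that links Argonaute to CCR4-NOT, at 4.57 RPKM and 1.73 RPKM (ratio 2.64, 2.16 to 3.22). On the log2 scale with the pseudocount, DHX34, a helicase of nonsense-mediated decay, and TNRC6B came next at 0.88 and 0.85, with RPKM ratios of 2.44 (1.72 to 3.47) and 2.68 (2.15 to 3.35). The plain RPKM ratios have another order, with TNRC6B above KHSRP and TNRC6A, and SKIV2L, a helicase that assists the exosome, named after its values were seen, at 3.28 (1.89 to 5.74) on 30 and 27 reads.

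The LSM1 to LSM7 mRNAs, whose proteins form a ring on deadenylated tails and activate decapping, were all lower in the IP. Their median log2 ratio was -0.90, and 6 of 7 intervals were below 1, against 20.1% of all features. Among all features past the filter, 3916 of 9880 had an RPKM ratio below 1. The LSM mRNAs were part of the partner list but not a planned group of their own. LSM7 was at 2.38 RPKM in the IP versus 12.4 in the Input, 5.20-fold lower (2.98 to 9.95), LSM3 3.80-fold lower (2.98 to 4.89) and LSM1 3.19-fold lower (2.09 to 5.08). MAGOHB, an exon junction complex subunit, was 2.69-fold lower (2.14 to 3.41). The LSM features had a median length of 2605 bp, against 5296.5 bp for the members, and the part of length in this difference was not tested.

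**Figure D4:**
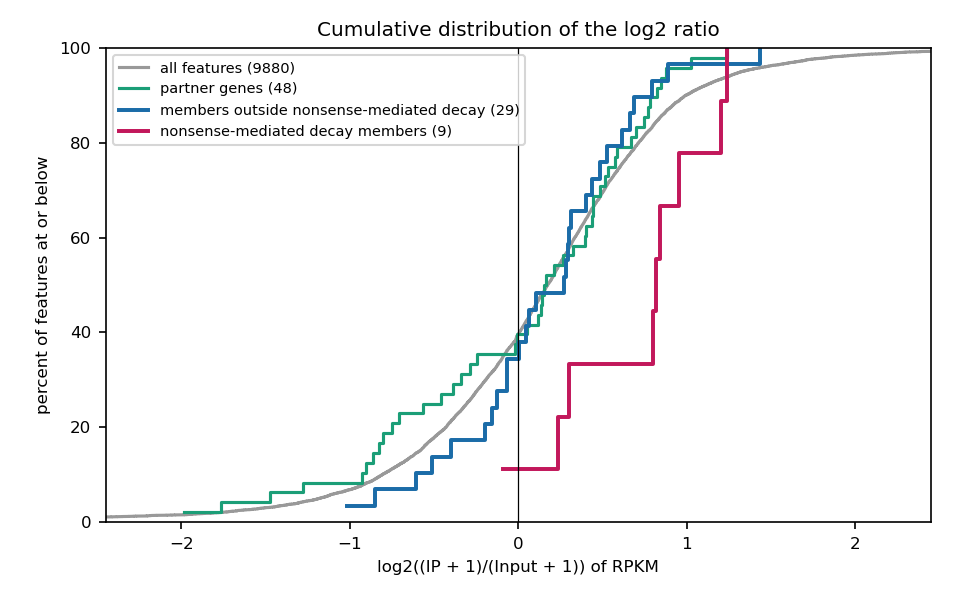
Cumulative percentage of features at or below each log2((IP + 1)/(Input + 1)) of RPKM, for all 9880 features past the filter, 48 partner genes, 29 members outside nonsense-mediated decay and 9 members of it. The curve of the 9 lies to the right of the others at its middle, with a median of 0.82 against 0.17 for all features, and ends at 1.24, before that of the other members at 1.44.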

How the data were processed

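Per the labels' protocols, RNA of HUH7 cells was recovered with a RIP kit, fragmented, copied from random hexamers and sequenced. FastQC 0.12.0 and hg38 are named in the submitters' processing notes. Which aligner, counter and annotation were used is not given in the sources used here. The table that the authors deposited holds RPKM values for 2 libraries and their own log2 fold change between them, per the file headers.

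Whole reads were recovered by solving the deposited RPKM ratio and log2 fold change together, assuming a small constant added to the reads that averaged 0.125 per library. This gave whole reads, within the 0.01 set for acceptance, for 14913 of 14914 features, and the procedure was checked on simulated data. The simulated data used the same form of added constant, so they do not test that form, which no source names. Features were matched by symbol to GENCODE release 29 (GRCh38), and 12660 of the 14914 matched 1 gene. The recovered length equalled the exon union of that gene for 11451. Features without such a match are left out of the protein-coding shares and length bins. The listed features hold 99.8% of each depth. With 1 library per group, no test between conditions was made. Ratios have 95% Clopper-Pearson intervals (scipy 1.17.1). Windows of 50 bases were compared between transcripts.

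The members, role groups, partner list and settings were chosen with earlier results of these data known. Counts and medians cover the members past the filter, and 1 member is not reported here by name. Named were all members past 2-fold, the extremes of each role group, paralog pairs, the main enzymes and the 4 highest and 4 lowest partners. Alternatives changed the pseudocount, filter, centring and threshold. The planned search downstream of the cleavage sites was not made, because no genome sequence was used here, and protein sequences were not used.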

Additional observations from a re-analysis of the deposited data

How the results depend on the processing

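With a pseudocount of 0.1 RPKM, 7 members were at least 2-fold higher (adding SMG5, SMG6, DCP1A and DIS3L) and 2 lower (adding CNOT10), while 18.5% and 10.4% of all features were. With 5 RPKM there were 0 and 0, against 1.88% and 2.99%. A filter of 5 RPKM left 15 members, with 1 higher (UPF1) and 0 lower, against 9.35% and 11.6% of features. Centring on the median or the trimmed mean kept SMG1, UPF1 and PABPC1L higher and made 2 lower. At 1.5-fold, 12 were higher and 3 lower (26.0% and 15.0% of features), at 4-fold 0 and 0 (1.53% and 1.51%), and with the whole interval beyond 2-fold, 4 higher (adding SMG6) and 0 lower (6.76% and 2.87%). Partner genes, 2 higher and 4 lower, became 7 and 7 with 0.1 RPKM, 1 and 3 with 5 RPKM, 1 and 4 with the 5 RPKM filter, 1 and 7 with either centring, 11 and 11 at 1.5-fold and 0 and 0 at 4-fold.

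The median log2 ratio of the members was 0.35 and 0.17 with pseudocounts of 0.1 and 5 RPKM, 0.13 when centred on the median and 0.13 on the trimmed mean. Its excess of 0.13 over all features became 0.26 with the 5 RPKM filter. The excess of the nonsense-mediated decay mRNAs, 0.65, was 0.77, 0.42 and 0.80 with pseudocounts of 0.1 and 5 RPKM and the 5 RPKM filter. That of CCR4-NOT, -0.24, was -0.31 and -0.12 with those pseudocounts and reversed to 0.065 with that filter, which keeps only CNOT3, CNOT9 and CNOT11. These 2 excesses and a minimum of 20 reads, which changed no count of members, were added after seeing the data. Of 152 single-member values under other pseudocounts and centrings, 11 moved by more than the half-width of their counting interval. CNOT9, EDC3, EXOSC8 and XRN2, all under 2-fold, changed sign with either centring, to -0.07, -0.11, -0.13 and -0.17 when centred on the median. No paired analysis was possible because each group has 1 library.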
